A study of Mus musculus with 2 samples.

Results

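Lipid-associated macrophages are macrophages that take up, store and export lipid, and 10 genes used to recognize them were followed here in mouse tumors: Apoe, Trem2, Lpl, Gpnmb, Spp1, Cd36, Fabp5, Lgals3, Abca1 and Ctsd. They were taken by symbol from the 32285 features of the count files, and each of the 10 matched 1 feature. The tumors were subcutaneous grafts of MC38, a mouse colon adenocarcinoma line, in C57BL/6 mice. The untreated group received intratumoral saline with 10% DMSO, and 10% DMSO is listed as vehicle for both groups. The other group received MSA-2, a small-molecule agonist of the innate DNA-sensing adaptor STING, by the same route. Both groups had 3 injections at 3-day intervals. Tumors were collected on day 7, and material of 3 mice was pooled, so each group is 1 droplet-based 3′ single-cell RNA library and the spread between mice is unknown. The methods give an age of 6 to 8 weeks for C57BL/6 mice, male or female, without an age in the sequencing section, and they say that cells were sorted without naming the markers.

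In adipose tissue, atherosclerotic plaques and tumors, macrophages of this kind clear lipoproteins, dying cells and cell debris. The receptor TREM2 binds lipids and apolipoproteins, lipases and scavenger receptors bring fatty acids into the cell, fatty acid-binding proteins carry them, and lysosomes break down the cargo. Surplus cholesterol leaves through ABC transporters onto apolipoprotein E, while secreted osteopontin and galectin-3 act on neighboring cells and matrix.

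The untreated library held 14386 barcodes and 198135335 unique molecular identifiers (UMIs), and the MSA-2 library 14617 barcodes and 204387165 UMIs. The labels call the material tumor cells, and the methods call the same number of barcodes immune cells. The files hold cells with high and cells with near-absent Ptprc, the pan-leukocyte gene, in each library, so neither description covers all of them. After filtering and removal of called doublets, 13334 untreated and 13346 MSA-2 cells were kept. The libraries shared 53 barcode sequences, 39 of them among kept cells, and no member changed its side of 2-fold in the macrophage, monocyte or Gng11-high gate when these were left out.

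Cells were assigned by marker gates that use none of the 10 genes. The macrophage gate (C1qa, C1qb and C1qc) held 3374 untreated cells, 25.3% of those kept (24.6% to 26.1%), and 883 MSA-2 cells, 6.62% (6.20% to 7.05%). The monocyte gate (Ly6c2, Ccr2, F13a1 and Plac8) held 248 and 333 cells, and cells that passed both sets were kept apart as an overlap gate of 125 and 141 cells. Ranges in parentheses are exact 95% intervals throughout, and they cover counting error only.

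The gate meant for tumor cells rested on 1 gene. Of its 6 listed markers, Gng11 reached 2084 CPM (UMIs scaled to a total of 1000000 for each gate) among untreated and 2903 CPM among MSA-2 cells, but Krt8, Krt18, Krt7, Krt19 and Epcam were each at or below 0.781 CPM in both. These 3527 and 4469 cells had Ptprc at 11.1 and 7.48 CPM, against 669 and 854 CPM in the macrophage gate, and carried Anxa1 at 1121 and 1286 CPM. They are called Gng11-high cells below and are given no cell type name. By construction they hold less than 10 C1q UMIs per 10000.

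A natural killer and T cell gate (NK/T, 1244 and 191 cells) served for comparison. Its UMIs of a member can be free RNA or the cells' own, and these were not separated. Untreated NK/T cells had 1.43 Ctsd, 1.87 Lgals3, 1.16 Fabp5 and 1.32 Spp1 UMIs per C1qa UMI. In untreated macrophages these were 0.116, 0.201, 0.087 and 0.036, so for these genes the NK/T share is not a measure of free RNA. Macrophage-gate cells had a median depth of 5672 UMIs (untreated) and 4878 UMIs (MSA-2), against 3706 and 4108 in the monocyte gate, 3437 and 4839 in the NK/T gate, and 18872 and 19763 in Gng11-high cells. For shares of cells with a UMI, each cell was therefore also thinned to 1500 UMIs. This left out 126 untreated and 48 MSA-2 macrophage-gate cells, 3 and 17 of the monocyte gate, 40 and 8 of the NK/T gate, and 14 and 24 Gng11-high cells.

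Changes are log2 ratios of the CPM of the MSA-2 library to that of the untreated library. A gene is said to rise or fall where the ratio is at least 2-fold and the gene was counted, which needed 50 UMIs over the pair of libraries and 20 CPM in one of them. With 1 library per group there was no test and no replicate check of any difference. Counts from 3′ ends follow transcript number and capture, so levels are compared between cells and libraries and not between genes.

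In the macrophage gate, Gpnmb, Spp1 and Cd36 rose, no member fell, and the other 6 counted members stayed within 2-fold. Of the 6035 features counted in this gate, 6.43% were at least 2-fold higher and 3.7% at least 2-fold lower. Against that background 3 of 9 counted members were higher and 0 lower. The median log2 ratio was 0.23 over the counted members and -0.15 over all counted features. Lpl was not counted, because it reached 19.96 CPM.

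The monocyte gate gave a different picture. Spp1 rose there, while Apoe, Trem2 and Fabp5 fell. Of 5403 features counted, 10.3% were at least 2-fold higher and 10.6% lower, against 1 and 3 of 9 counted members. The median log2 ratio was 0.18 for members and -0.27 for all features. With another scaling (edgeR TMM factors) Fabp5 was within 2-fold and Ctsd rose. That gave 2 members higher and 2 lower, beside 13.9% and 5.48% of all features. That the monocyte and macrophage gates differ in these changes was not tested.

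In the overlap gate Spp1 and Ctsd rose and no counted member fell, which is 2 of 7 higher and 0 lower beside 10.3% and 7.13% of 3887 features. In Gng11-high cells Apoe and Fabp5 fell and none rose, which is 0 of 6 higher and 2 lower beside 4.2% and 2.81% of 6474 features. Their median log2 ratio was -0.36 over the counted members and 0.03 over all features.

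**Figure D1:**
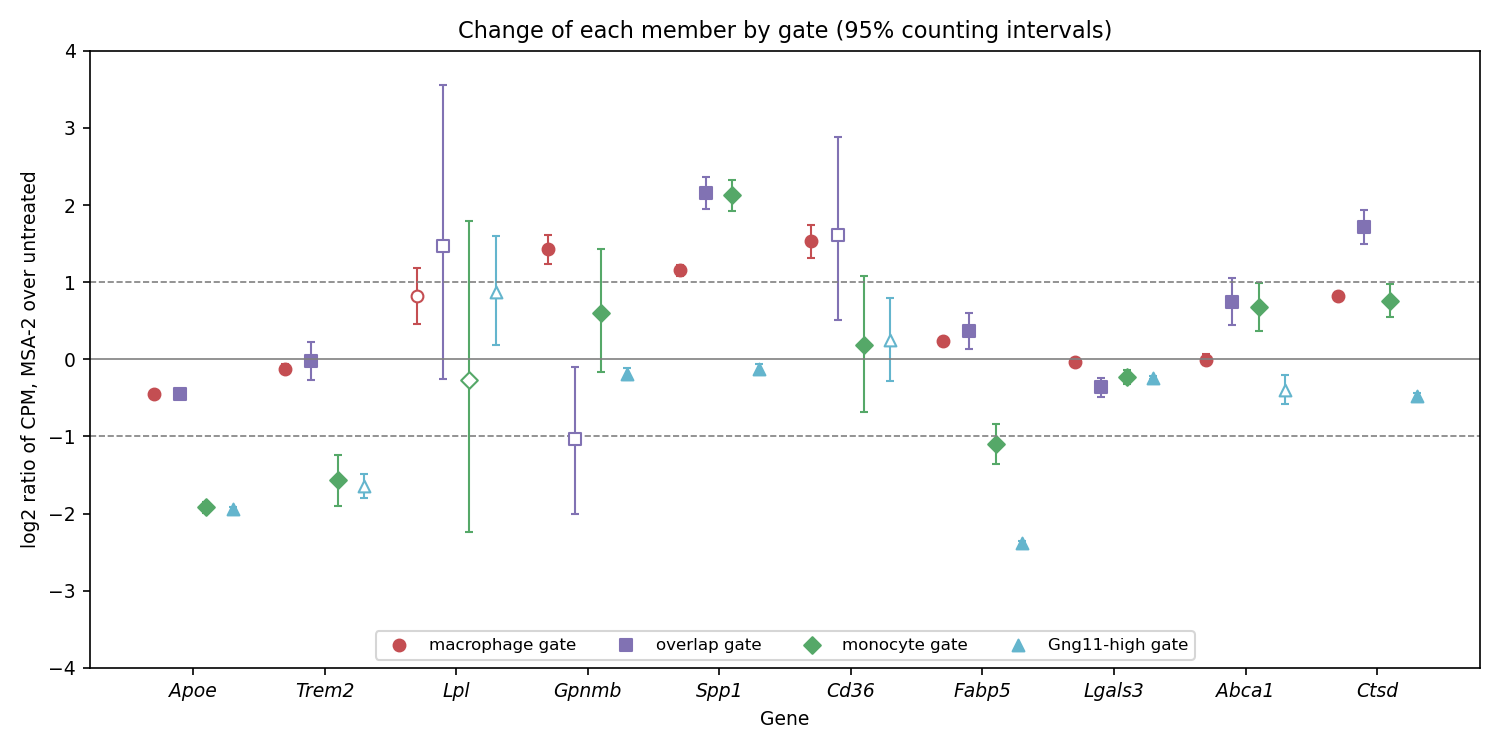
Log2 ratio of CPM, MSA-2 over untreated, for each of the 10 genes (x axis) in 4 gates, with exact 95% counting intervals; open symbols are genes below the count filter and dashed lines mark 2-fold. Gpnmb, Spp1 and Cd36 lie above 2-fold in the macrophage gate, whereas Apoe and Fabp5 lie below it in the monocyte gate and in Gng11-high cells.

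Apoe (ENSMUSG00000002985, chr7:19696109-19699188 in mm10, minus strand) encodes apolipoprotein E, which carries lipid out of macrophages and is a ligand of TREM2. Untreated macrophages had 23635 CPM and MSA-2 macrophages 17366 CPM, a log2 ratio of -0.44 (-0.46 to -0.43). The overlap gate came next in both libraries at 12288 and 8976 CPM and then the monocyte gate at 5602 and 1479 CPM. In monocytes the gene fell by 1.92 on the log2 scale (-1.995 to -1.85). Within the macrophage gate nearly every cell had an Apoe UMI, 99.4% of untreated and 96.5% of MSA-2 cells after thinning and 99.9% and 98.3% before.

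Apoe was also counted often outside the macrophage, overlap and monocyte gates. In NK/T cells it fell from 562 to 117 CPM (-2.26, -2.54 to -2.001), and a thinned UMI was found in 57.6% and 16.4% of cells (83.8% and 41.9% unthinned). Gng11-high cells had 396 and 103 CPM, a fall of 3.85-fold. Here the number of Apoe UMIs per C1qa UMI was 3.15 (untreated) and 2.77 (MSA-2), beside 3.44 and 2.85 in the macrophage gate and 3.35 and 3.05 in NK/T cells. The ratio to a macrophage gene was thus alike in these 3 gates of a library, and C1qa itself went from 2.65 to 0.848 UMIs per Gng11-high cell. The thinned share of Gng11-high cells with Apoe, 44.9% and 15.5%, lay below that of NK/T cells in the untreated library and could not be told apart from it in MSA-2 (14.4% to 16.6% against 11.3% to 22.6%). The unthinned share of these deeper cells, 98.8% and 81.9%, lay above that of NK/T cells. Free RNA and expression of Apoe in Gng11-high cells were not separated. In monocytes the same quotient was 29.1 and 23.3. The gate itself holds C1q low, which raises the quotient by construction, so nothing is read from its height. The Gng11-high gate limits C1q too, and its quotients are given as values only. C1qa went from 0.754 to 0.267 UMIs per monocyte and from 0.675 to 0.209 per NK/T cell.

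Trem2 (ENSMUSG00000023992, chr17:48346401-48354147, plus strand) encodes the lipid-sensing receptor that signals through the adaptor TYROBP. Macrophages held it at 584 CPM (untreated) and 537 CPM (MSA-2), a log2 ratio of -0.12 (-0.18 to -0.06), and the overlap gate at 407 and 401 CPM. In the monocyte gate it fell from 244 to 82.1 CPM, a log2 ratio of -1.57 (-1.90 to -1.24). C1qa, which this gate holds low, fell there too, from 0.754 to 0.267 UMIs per cell. In NK/T cells C1qa likewise went from 0.675 to 0.209 UMIs per cell. Trem2 UMIs per C1qa UMI in monocytes were 1.27 and 1.29, and a link between the falls of Trem2 and C1qa was not tested. A thinned Trem2 UMI was found in 30.2% of untreated and 8.23% of MSA-2 monocytes (48.0% and 18.6% unthinned), against 3.49% and 0% of NK/T cells (7.32% and 0.524% unthinned). The monocyte shares lie above those NK/T shares in each library. Gng11-high cells had 14.4 and 4.6 CPM, below the count filter, and 0.114 and 0.124 Trem2 UMIs per C1qa UMI beside 0.085 and 0.088 in macrophages.

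**Figure D2:**
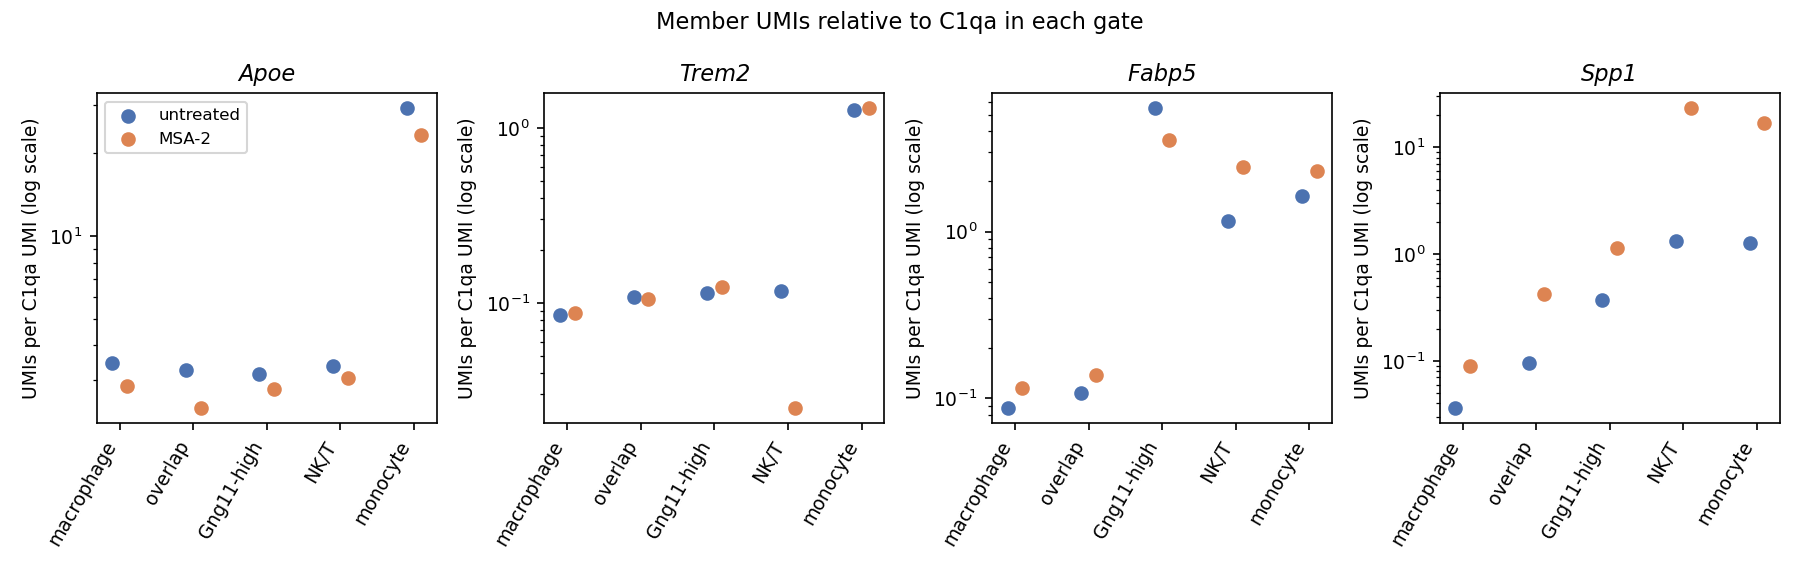
UMIs of Apoe, Trem2, Fabp5 and Spp1 divided by UMIs of C1qa (y axis, log scale) in 5 gates of the untreated and MSA-2 libraries, 1 point per library. For Apoe the macrophage, Gng11-high and NK/T gates lie between 2.77 and 3.44. For Fabp5 untreated Gng11-high cells reach 5.46 and untreated NK/T cells 1.16, against 0.087 in untreated macrophages.

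Cd36 (ENSMUSG00000002944, chr5:17781690-17888801, minus strand) encodes a scavenger receptor for oxidized lipoproteins and long-chain fatty acids. It rose from 22.7 to 65.5 CPM in macrophages, a log2 ratio of 1.53 (1.32 to 1.75). A thinned UMI was found in 2.31% of untreated and 6.35% of MSA-2 macrophages (6.46% and 14.7% unthinned), against 0.083% and 0.546% of NK/T cells (0.482% and 1.05% unthinned). Without cells that carry the tissue-resident markers Folr2, Lyve1, Cd163 or Timd4, the ratio was 0.98 (0.71 to 1.24), just under 2-fold. Monocytes had 19.5 and 22.1 CPM from 19 and 31 UMIs, and a difference was not detectable at this depth (0.18, -0.69 to 1.09).

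Lpl (ENSMUSG00000015568, chr8:68880491-68907448, plus strand) encodes lipoprotein lipase, which frees fatty acids from circulating triglycerides. Macrophages had 224 untreated and 92 MSA-2 UMIs, 11.3 and 19.96 CPM, and a log2 ratio of 0.82 (0.46 to 1.18). Leaving out the resident-marker cells brought this to -0.05 (-0.58 to 0.44). Monocytes held 5 and 6 UMIs, and the difference there was not detectable. By CPM, Lpl in fibroblast-gate cells was higher, at 33.5 and 56.1 CPM, and the endothelial gate, at 32.8 and 51.9 CPM from 5 and 16 UMIs, could not be told apart from these. By UMIs, the macrophage gate held most Lpl of the untreated library (52.3%, against 25% in fibroblasts), and fibroblasts held most in MSA-2 (53.0%, against 10.97% in macrophages).

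Fabp5 (ENSMUSG00000027533, chr3:10012548-10016607, plus strand) encodes a carrier of fatty acids in the cytoplasm. It was at 599 and 704 CPM in macrophages, a log2 ratio of 0.23 (0.17 to 0.29). The share of macrophages with a UMI was instead lower in MSA-2, 65.7% (64.1% to 67.3%) and 49.8% (46.5% to 53.2%) unthinned, and 35.6% and 33.1% thinned, with overlapping intervals. In MSA-2 1 macrophage held 7.12% of the UMIs and 36 held 50%, and without the top cell of each library the ratio was 0.15 (0.09 to 0.21). In monocytes it fell from 312 to 146 CPM (-1.09, -1.36 to -0.83). That fall sits close to 2-fold, and it was -0.83 under another scaling and -0.58 after thinning. The thinned share of monocytes with Fabp5 was 27.3% (untreated) and 12.97% (MSA-2), or 52.4% and 26.1% unthinned, near the 23.4% and 11.5% of NK/T cells (43.7% and 30.9% unthinned). Fabp5 also fell in NK/T cells, from 195 to 94.1 CPM (-1.05, -1.36 to -0.75), and its part in the monocyte value was not tested.

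The largest fall of any counted member in the 4 compared gates was that of Fabp5 in Gng11-high cells. There it went from 686 to 132 CPM, a log2 ratio of -2.38 (-2.40 to -2.35) or 5.19-fold. The thinned share of these cells with a UMI went from 44.2% to 14.1% (91.8% to 67.9% unthinned). In contrast to Apoe, their Fabp5 was out of proportion to C1qa, with 5.46 and 3.56 UMIs per C1qa UMI against 0.087 and 0.116 in macrophages. This was not particular to them, since NK/T cells had 1.16 and 2.45 and fibroblast-gate cells 2.002 and 3.065. The Gng11-high gate also holds C1q low by construction, which can raise its quotient. The cell with most Fabp5 UMIs held 0.767% (untreated) and 1.06% (MSA-2) of them, and 335 and 413 cells, 9.50% and 9.24% of the gate, held 50%. In the untreated neutrophil gate, by comparison, 93.7% of 444 Fabp5 UMIs lay in 1 cell. The Fabp5 level of that gate is therefore used only in the profiles below.

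Gpnmb (ENSMUSG00000029816, chr6:49036546-49070929, plus strand) encodes a glycoprotein of the lysosome and cell surface found in macrophages, melanocytes and osteoclasts. It rose from 30.5 CPM (28.1 to 33.1) to 82.0 CPM (73.9 to 90.7) in macrophages, a log2 ratio of 1.43 (1.24 to 1.61). Gng11-high cells had a similar level in the untreated library, 32.4 CPM, and 28.3 CPM in MSA-2, a log2 ratio of -0.20 (-0.27 to -0.12). The macrophage gate over Gng11-high cells thus gave a log2 ratio of -0.09 (-0.22 to 0.04) untreated, where the gates could not be told apart, and 1.53 (1.38 to 1.69) with MSA-2.

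Gpnmb UMIs were sparse in macrophages, 0.18 and 0.428 a cell, so the share of cells with a UMI does not tell how many express the gene. A UMI was found in 3.17% of untreated and 7.43% of MSA-2 cells after thinning and in 8.62% and 14.4% before, against 0.831% and 0% of NK/T cells (1.69% and 1.05% unthinned). In MSA-2 macrophages 1 cell held 14.6% of the 378 UMIs and 13 cells held 50% of them. Without the top cell of each library the ratio was 1.28 (1.07 to 1.48). Monocytes had 21.6 and 32.8 CPM from 21 and 46 UMIs (0.61, -0.17 to 1.42), and the overlap gate had 30 and 16 UMIs, too few to be counted.

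The windows before the start sites of Gpnmb and Abca1 are printed because they hold no annotated transcript. Gpnmb rose in macrophages and Abca1 stayed level. Spp1 and Cd36 rose too and are not printed, so no contrast is read from the pair. The printed windows are the 250 bases before the RefSeq start (GRCm38.p6, the assembly also named mm10), read 5′ to 3′ on the strand of the gene. Capitals mark the E-box CACGTG, the palindrome read by MITF, TFEB and related factors of lysosomal genes, some of which were on the lists measured here. The Gpnmb window is chr6:49036268-49036517 on the plus strand and the Abca1 window chr4:53159896-53160145 on the minus strand, and they were chosen after the values and matches had been seen.
Gpnmb: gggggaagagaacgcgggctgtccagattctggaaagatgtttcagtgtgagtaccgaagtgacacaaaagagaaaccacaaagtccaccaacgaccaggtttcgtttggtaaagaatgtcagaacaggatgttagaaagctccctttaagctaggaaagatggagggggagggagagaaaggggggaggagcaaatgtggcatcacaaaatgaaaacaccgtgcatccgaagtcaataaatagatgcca
Abca1: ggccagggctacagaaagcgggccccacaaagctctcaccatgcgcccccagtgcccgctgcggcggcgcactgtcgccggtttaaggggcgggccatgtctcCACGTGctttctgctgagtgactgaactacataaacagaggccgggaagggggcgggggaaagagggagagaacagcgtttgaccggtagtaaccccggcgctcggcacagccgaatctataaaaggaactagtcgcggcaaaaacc
Motifs were searched on both strands in the 8 members with a promoter entry. This covered 1 window each, although Apoe has 3 entries and Spp1 has 2. The start sites used for Cd36 and Lgals3 lie 52905 and 6109 bases from the gene starts printed here. The E-box was found in Abca1, 147 bases before the start, and in Ctsd, at 245 and 98 bases, and 6.02% of 32851 promoters hold it. GAGGAA was found in Apoe, Trem2 and Spp1 (23.3% of promoters). CATGTG (12.3%) and the AP-1 motif TGACTCA (4.46%) were in none of the 8 windows. The Gpnmb window held none of the 4 motifs, which says only that these letters are not in these bases. Lpl and Fabp5 were not searched.

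Spp1 (ENSMUSG00000029304, chr5:104435118-104441050, plus strand) encodes osteopontin, a secreted ligand of CD44 and integrins. In the untreated library macrophages and monocytes had 248 and 246 CPM, a log2 ratio of 0.01 (-0.18 to 0.20). This comparison rests on few monocytes, since 1 of the 248 held 23.4% of their 239 UMIs and 5 held 50%. MSA-2 macrophages had 552 CPM and monocytes 1071 CPM, so Spp1 rose by 1.16 (1.09 to 1.23) and 2.12 (1.93 to 2.33) on the log2 scale. Without the top cell of each library the monocyte value was 2.395 (2.17 to 2.63). Among the macrophage, overlap, monocyte, NK/T and Gng11-high gates the overlap gate had the highest level in both libraries, 362 and 1610 CPM (2.15, 1.95 to 2.36). The untreated neutrophil gate of 31 cells stood above it at 2328 CPM, with 68.1% of its 113 UMIs in 1 cell. In Gng11-high cells it was at 46.3 and 42.5 CPM, a log2 ratio of -0.12 (-0.19 to -0.06).

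Spp1 also rose in NK/T cells, where the gene is not a defining product. They went from 221 to 887 CPM, a log2 ratio of 2.003 (1.88 to 2.13). Few cells held these UMIs, with 9.38% of 1109 in 1 untreated cell and 16.2% of 924 in 1 MSA-2 cell, and 50% in 17 of 1244 and 9 of 191 cells. A thinned UMI was found in 11.1% of untreated and 29.0% of MSA-2 NK/T cells (16.8% and 37.7% unthinned), beside 16.3% and 26.9% of macrophages (31.6% and 42.6%) and 14.3% and 38.6% of monocytes (22.2% and 53.8%). The untreated macrophage share lies above that of NK/T cells, while in MSA-2 the shares could not be told apart, thinned (24.0% to 30.1% against 22.5% to 36.1%) or unthinned (39.3% to 45.9% against 30.8% to 45.0%). Per cell, macrophages had 1.46 and 2.88 Spp1 UMIs, monocytes 0.964 and 4.51, NK/T cells 0.892 and 4.84, and Gng11-high cells 0.975 and 0.972. In Gng11-high cells, the deepest of these, the level stayed within 2-fold, while the share with a UMI went from 28.1% (26.7% to 29.6%) to 40.1% (38.7% to 41.6%) unthinned and from 4.27% to 5.15% thinned. There 1 untreated cell held 7.97% of the UMIs, and without the top cell of each library the log2 ratio was -0.03 (-0.10 to 0.04). Free RNA and expression were not separated for this gene.

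Lgals3 (ENSMUSG00000050335, chr14:47367751-47386160, plus strand) encodes galectin-3, a lectin that binds glycans and damaged lysosomes. It stayed within 2-fold in the macrophage, monocyte and Gng11-high gates: 1380 and 1352 CPM in macrophages (-0.03, -0.07 to 0.01), 2062 and 1757 CPM in monocytes (-0.23, -0.32 to -0.14), and 516 and 438 CPM in Gng11-high cells (-0.24, -0.26 to -0.22). Monocytes stood above macrophages in both libraries, with a macrophage over monocyte log2 ratio of -0.58 (-0.65 to -0.51) and -0.38 (-0.45 to -0.31). A thinned UMI was found in 93.1% and 83.9% of monocytes (98.8% and 92.5% unthinned), against 30.4% and 36.6% of NK/T cells (52.3% and 61.3% unthinned).

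Abca1 (ENSMUSG00000015243, chr4:53030787-53159895, minus strand) encodes the transporter that moves cholesterol onto apolipoproteins. Its macrophage level was 435 CPM (untreated) and 433 CPM (MSA-2), a log2 ratio of -0.01 (-0.08 to 0.07), the smallest difference among the 10. In monocytes it was at 132 and 209.8 CPM (0.67, 0.37 to 0.98) and in the overlap gate at 221 and 371 CPM (0.75, 0.45 to 1.05), both within 2-fold. Thinned shares were 42.1% and 42.5% in macrophages and 14.3% and 23.4% in monocytes (75.6%, 72.9%, 31.5% and 41.7% unthinned), against 1.33% and 2.73% in NK/T cells (3.14% and 4.71% unthinned).

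Ctsd (ENSMUSG00000007891, chr7:142375911-142388038, minus strand) encodes the lysosomal aspartic protease cathepsin D. It was at 794 CPM in untreated macrophages and at 1405 CPM after MSA-2, a log2 ratio of 0.82 (0.78 to 0.87), short of 2-fold. In the overlap gate it rose from 348 to 1144 CPM (1.71, 1.499 to 1.94), and in monocytes it was at 265 and 449.7 CPM (0.76, 0.55 to 0.98). NK/T cells had 239 CPM in both libraries and Gng11-high cells 156 and 112 CPM (-0.48, -0.52 to -0.44). A thinned UMI was found in 53.2% and 68.3% of macrophages (81.4% and 87.4% unthinned), against 27.2% and 24.0% of NK/T cells (49.7% and 57.6% unthinned).

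The Ctsd window carries the E-box at 2 places, and a short stretch around each is shown, chosen after values and matches had been seen. They lie on the minus strand at chr7:142388055-142388077 and chr7:142387908-142387937 of GRCm38.p6, with the E-box again in capitals. Most of this window is annotated as 5′ UTR in other transcripts, and a match describes letters, not binding.
Ctsd first: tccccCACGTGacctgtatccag
Ctsd second: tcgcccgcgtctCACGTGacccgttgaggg

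**Figure D3:**
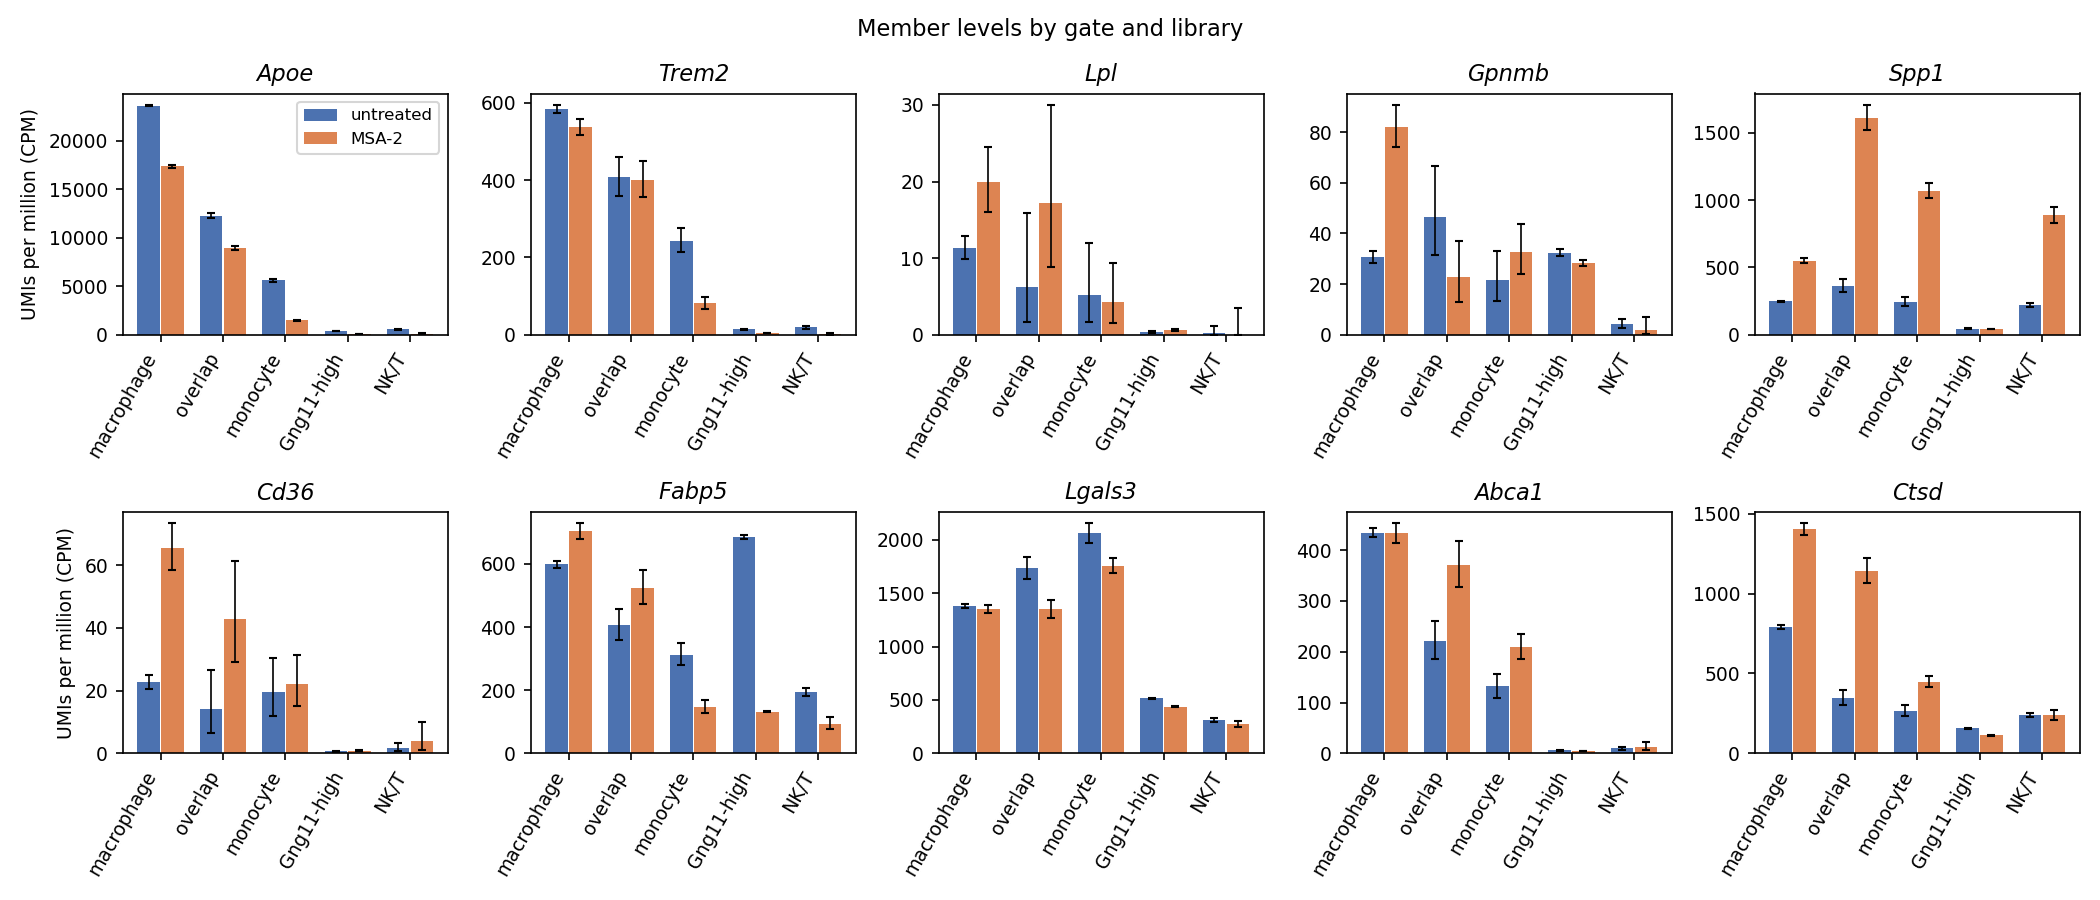
CPM (y axis, from 0) of each of the 10 genes in 5 gates, untreated in blue and MSA-2 in orange, with exact Poisson 95% intervals as error bars and 1 library per bar. Apoe, Trem2 and Abca1 are highest in the macrophage gate in both libraries, while Spp1 is highest in the MSA-2 overlap gate at 1610 CPM.

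Over the macrophage, overlap, monocyte and NK/T gates, Apoe, Trem2, Fabp5, Abca1 and Ctsd had the same order of levels in both libraries, with macrophages highest and NK/T cells lowest. For Ctsd the untreated monocyte and NK/T levels did not differ beyond counting error (0.15, -0.05 to 0.34). Lgals3 was highest in monocytes, and its MSA-2 macrophage and overlap levels could not be told apart (-0.098 to 0.101). Macrophages and monocytes of the untreated library could not be told apart for Cd36 (0.21, -0.45 to 0.96), Gpnmb (0.50, -0.13 to 1.20) or Lpl (1.13, -0.11 to 2.77), while in MSA-2 each was higher in macrophages, with log2 ratios of 1.57 (1.03 to 2.15), 1.32 (0.88 to 1.79) and 2.22 (1.04 to 3.70). Outside these gates, endothelial cells, 20 and 34 in number, had Cd36 at 236 and 139.6 CPM, with 50% of 36 and 41.9% of 43 UMIs in 1 cell. The untreated dendritic cell gate of 127 cells had 143 Cd36 UMIs, 140.6 CPM, and the 14 MSA-2 cells of that gate had 0.

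Within the macrophage gate the members were followed in resident-marker cells and in cycling cells, and a cell could pass both sub-gates. Resident-marker cells went from 43 untreated cells, 1.27% of the gate (0.924% to 1.71%), to 106 MSA-2 cells, a share with an interval of 9.93% to 14.3%. Cycling cells numbered 233 and 18, 6.91% (6.07% to 7.81%) and 2.04% (1.21% to 3.20%), and 3101 and 760 cells passed neither.

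Lpl, Cd36 and Ctsd were highest in the resident-marker cells of both libraries. Lpl stood there at 54.96 and 72.2 CPM, against 10.2 and 10.1 CPM in macrophages of neither sub-gate. For Cd36 the values were 121 and 193 CPM against 20.5 and 42.4 CPM, and for Ctsd 2224 and 2468 CPM against 803 and 1215 CPM. The cycling MSA-2 cells held only 3 UMIs each of Lpl and Cd36, and their place in this order is uncertain for Lpl. Trem2 (784 and 587 CPM against 594 and 530 CPM in neither), Fabp5 (699.9 and 799.5 CPM against 616 and 696 CPM) and Abca1 (736.5 and 468 CPM against 441 and 427 CPM) were also highest in resident-marker cells. Intervals overlapped those of cells in neither sub-gate for Trem2 and Abca1 in MSA-2 and for Fabp5 in the untreated library. Apoe was highest in cells of neither sub-gate, at 24652 and 18596 CPM.

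Gpnmb and Spp1 were highest in macrophages of neither sub-gate instead. For Gpnmb the untreated resident-marker and MSA-2 cycling cells, with 4 and 6 UMIs, had intervals that overlap this level. Gpnmb rose there from 33.1 to 89 CPM (1.43, 1.23 to 1.62) and Spp1 from 260 to 598 CPM (1.20, 1.13 to 1.27). Cd36 in these cells was just past 2-fold (1.05, 0.77 to 1.32). The resident-marker cells had the lowest Spp1 in the untreated library, 66.0 CPM from 18 UMIs, and reached 347 CPM in MSA-2 (2.40, 1.71 to 3.17). Ctsd in cycling cells went from 530 to 1082 CPM (1.03, 0.76 to 1.28).

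**Figure D4:**
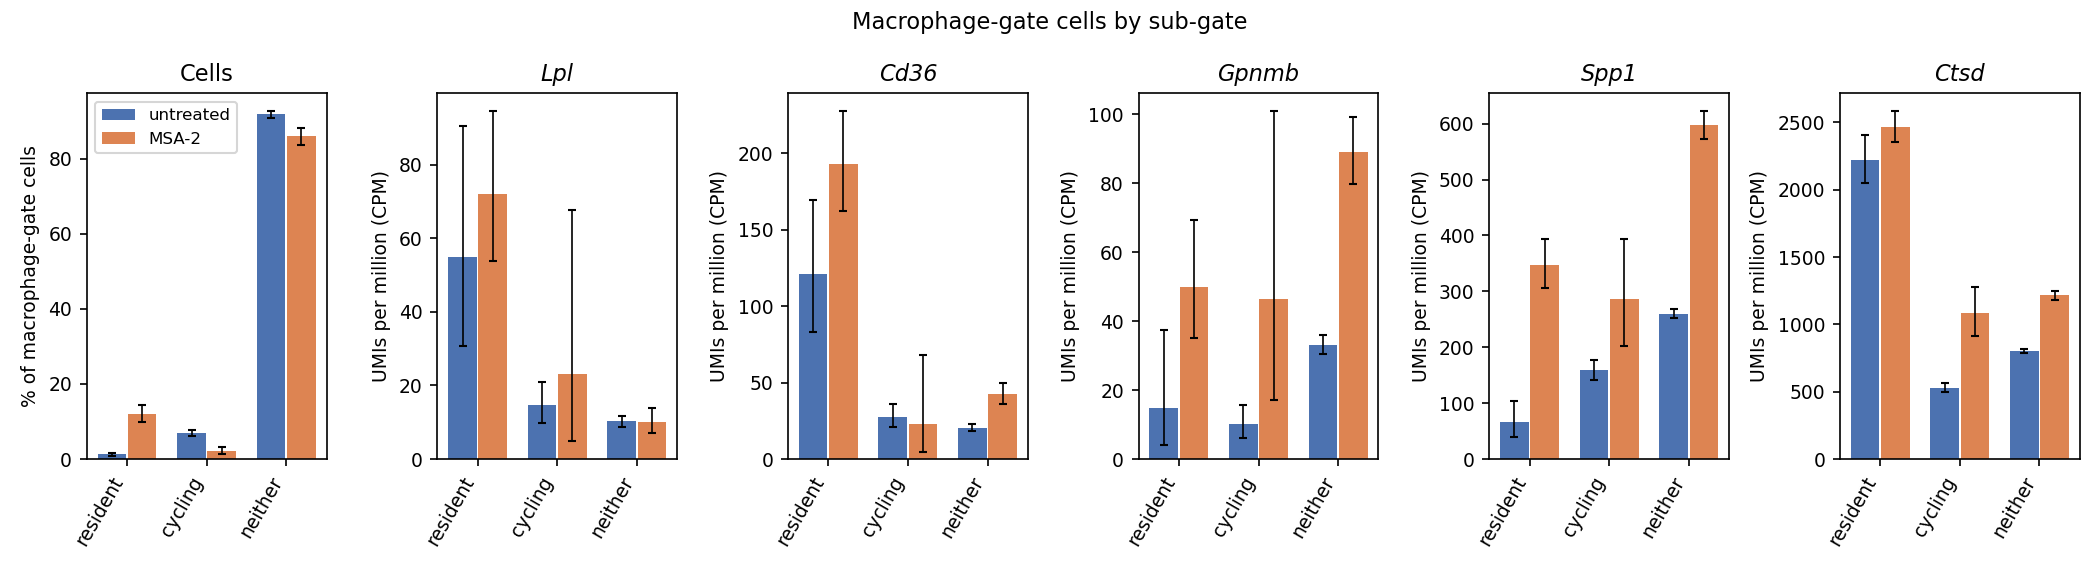
Share of macrophage-gate cells in each sub-gate and in neither (first panel, exact 95% binomial intervals) and CPM of Lpl, Cd36, Gpnmb, Spp1 and Ctsd in them (exact Poisson 95% intervals), untreated in blue and MSA-2 in orange. Resident-marker cells go from 43 to 106 cells and, of the 5 genes shown, hold the highest Lpl, Cd36 and Ctsd, while macrophages of neither sub-gate hold the highest Gpnmb and Spp1.

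Most macrophages carried several members at a depth of 1500 UMIs, with a median of 4 of the 10 in 3248 untreated and 835 MSA-2 cells, and no cell had all 10. Correlations over these cells, which share a library and have sparse counts, are a description. The highest in untreated cells were Apoe with Ctsd (Pearson r 0.30 of log UMIs) and Fabp5 with Lgals3 (0.29), and in MSA-2 cells these were 0.02 and 0.30. Gpnmb went with Fabp5 at 0.24 and 0.23. Fabp5 was found in 69.9% of the 103 untreated cells with a Gpnmb UMI and 34.4% of those without, and in 59.7% and 30.9% in MSA-2. Cd36 and Gpnmb showed r of 0.06 and -0.01.

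Seen over the whole tumor, the members were held by different cells. The macrophage gate had 82.5% (untreated) and 67.0% (MSA-2) of all Apoe UMIs, and 76.7% and 59.8% of those of Trem2. For Abca1 it had 80.4% and 31.7%, with the neutrophil gate at 0.0559% and 14.9%. Spp1 UMIs of the neutrophil gate, which went from 31 to 2485 cells, went from 0.744% to 23.6% of the total. Gng11-high cells held more of Gpnmb (37.5% and 51.1%) and Fabp5 (41.5% and 36.3%) than the macrophage gate (9.43% and 6.67%, and 9.69% and 8.73%). Cells in no gate held 50.05% and 35.9% of Gpnmb, 45.2% and 45.1% of Fabp5, and 31.7% and 26.4% of Spp1.

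Summed over all kept cells, the ratios differ from those within the macrophage gate, and the part of the gate's size in this was not tested. Apoe had a log2 ratio of -2.31 (-2.32 to -2.30) and Trem2 of -1.92 (-1.97 to -1.87) in these sums, against -0.44 and -0.12 within the gate. Gpnmb had -0.24 and Cd36 -0.20, although both rose in macrophages, and Abca1 had -0.83 where the gate showed -0.01.

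Markers of other cells moved inside the gates too. The sum of neutrophil markers went from 47.8 to 515 CPM in the macrophage gate, 62.7 to 814 CPM in the monocyte gate, 6.19 to 313 CPM in NK/T cells and 4.39 to 367 CPM in Gng11-high cells. In the macrophage gate 5 of the 6 markers were at least 2-fold higher or went up from 0 UMIs, and Csf3r was at 43.0 and 46.9 CPM. Of these, S100a9 gave the most UMIs in MSA-2 macrophages, 237 CPM, while Cxcr2 was at 0 and 1.30 CPM. The monocyte markers F13a1 and Plac8 stood at 62.2 and 291 CPM and at 118 and 567 CPM in the macrophage gate, and Ccr2 at 64.2 and 24.3 CPM. The part of these in the member values was not tested.

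Genes that work with the members were followed in 7 lists, with an eighth of interferon-stimulated genes for reference. The counts of this and the next paragraphs on macrophages stand beside 6.43% of all counted features higher and 3.7% lower, with a median log2 ratio of -0.15, and nothing particular to a list is read from them. In macrophages the TREM2 signaling list (Tyrobp, Syk, Plcg2 and others) had 0 of 7 counted genes past 2-fold and a median log2 ratio of -0.49, with Tyrobp at 1341 and 1211 CPM. Of the genes of LXR, the sterol-sensing factor pair behind cholesterol efflux, 1 of 9 rose and 0 fell (median 0.20). It was Smpdl3a, a phosphodiesterase induced by sterols, from 61.8 to 162.5 CPM (1.39, 1.26 to 1.53).

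Lipoprotein and debris uptake had 2 of 6 counted genes higher and 0 lower (median 0.06, beside -0.15 over all features). Mertk, a receptor for dying cells, rose from 119 to 355.5 CPM (1.58, 1.48 to 1.67), and Msr1, a scavenger receptor for modified lipoproteins, from 92.4 to 233 CPM (1.33, 1.22 to 1.44). Lipid storage moved both ways, with 2 of 12 higher and 3 lower (median 0.37). Hilpda, a lipid droplet protein that inhibits lipolysis, rose from 129 to 438 CPM (1.76, 1.68 to 1.85), and Fabp4, a second fatty acid carrier, from 13.8 to 44.9 CPM (1.70, 1.44 to 1.97). Pparg, the fatty acid-activated nuclear receptor that drives Cd36 and Fabp4 in many macrophages, fell from 28.5 to 7.81 CPM (-1.87, -2.40 to -1.38). Acsl1, which activates fatty acids, went from 434 to 189 CPM (-1.20) and Dgat1, which completes triglycerides, from 39.4 to 18.7 CPM (-1.08).

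Lysosomal genes had 2 of 19 higher and 0 lower (median -0.05), beside 6.43% and 3.7% over all features. Ctsl, a cysteine protease, rose from 438 to 1335 CPM (1.61, 1.56 to 1.66) and Mitf, an E-box factor, from 86.5 to 291 CPM (1.75, 1.65 to 1.86). The related factors Tfeb and Tfe3 were at 21.5 and 11.1 CPM and at 32.8 and 28.6 CPM. Among partners of osteopontin and galectin-3, 0 of 8 rose and the integrin subunit Itga9 fell from 232 to 82.0 CPM (-1.50, -1.66 to -1.35). Only 1 of 7 genes that control lipoprotein lipase was counted, Sel1l, and it was within 2-fold. For reference, 8 of 10 interferon-stimulated genes rose in the macrophage gate (median 1.69).

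Monocytes showed a partly different set. Mertk (12.3 to 73.5 CPM, 2.58), Mitf (65.8 to 303 CPM, 2.20), Hilpda (251 to 876 CPM, 1.80), Lpcat3 (27.8 to 73.5 CPM, 1.41), Plin2 (443 to 1127 CPM, 1.35) and Msr1 (115 to 238 CPM, 1.05) rose. Inpp5d, a phosphatase that limits TREM2 signals, fell from 239.5 to 72.8 CPM (-1.72), and Adam10, a protease that sheds TREM2, from 98.7 to 45.7 CPM (-1.11). Of the LXR list 4 of 8 fell: Pltp (-2.11), Mylip (-1.77), Abcg1 (-1.38) and Scd2 (-1.08). Olr1 (-1.29), Scarb2 (-1.07) and Sel1l (-1.02) fell as well. Over all 5403 counted features of this gate 10.3% were higher and 10.6% lower, with a median of -0.27. Beside this, by list, 0 of 7 TREM2 signaling genes rose and 2 fell (median -0.50), 1 of 8 LXR genes rose and 4 fell (-0.63), 2 of 8 uptake genes rose and 2 fell (-0.65), 2 of 11 storage genes rose and 0 fell (0.27), 1 of 17 lysosomal genes rose and 0 fell (-0.50), and 0 of 7 partners of osteopontin and galectin-3 passed 2-fold (0.35). These counts depend on the scaling: with edgeR TMM factors, which shift each ratio of this gate by 0.27, the 7 lists went from 6 higher and 9 lower to 9 and 5 of 59, beside 13.9% and 5.48% of all features. Adam10, Scd2, Scarb2 and Sel1l were then within 2-fold, and Itgav, Lgals3bp and Ctsb were past it. The interferon-stimulated list had 9 of 10 higher (median 3.03).

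In Gng11-high cells 1 of the 46 counted genes of the 7 lists rose and 6 fell, beside 4.2% and 2.81% of all features, and they are named after their values were seen. Angptl4, an inhibitor of lipoprotein lipase, rose from 11.5 to 38.7 CPM (1.75), while Fabp4 (-1.90), Itgb5 (-1.92), Mylip (-1.49), Ctss (-1.38), Vldlr (-1.02) and Scd2 (-1.01) fell. Fabp4 thus fell in these cells beside Fabp5 and rose in macrophages, and that difference was not tested.

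Profiles over 18 combinations of gate and library, the small gates and the untreated neutrophil gate included, in log2 of CPM with 10 added, gave for each member the closest of 6910 features. Apoe was closest to Ms4a7 (Pearson r 0.96), Adgre1 and C1qc, and Trem2 to Kcnk13 (0.96), Ms4a7 and Csf1r. Abca1 followed Sdcbp (0.93), Tcn2 and Pde7b, Ctsd followed Il10 (0.85), Slc37a2 and Tlr7, and Lgals3 followed Scand1 (0.89), Rassf4 and E230029C05Rik. The others had Lpl with Pros1 (0.92), Pgf and Plxna4, Cd36 with Hdac9 (0.89), BC028528 and Rgl2, Gpnmb with Aff1 (0.88), Blvrb and Itgb5, Spp1 with Ccdc88b (0.89), Lilr4b and Slfn1, and Fabp5 with Mylip (0.83), Fbrsl1 and Ly6d. The profiles share libraries and some are small, so these are descriptions. Without the untreated neutrophil gate Fabp5 was again closest to Mylip (0.79), followed by Washc2 and Fnbp1l, while the closest feature became Csf1r for Trem2, Blvrb for Gpnmb, Ifi27l2a for Spp1, Rab7b for Lgals3 and Maf for Ctsd. Spp1 and Ctsd then kept none of the closest features named above, so those depend on that small gate.

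To place the members' changes in the macrophage gate, the features with the highest ratios were Retnlg, S100a9 (9.03) and Saa3 (7.77). Retnlg had 0 and 241 UMIs, with an exact lower limit of 279-fold. The lowest were Mgl2 (-5.71), Ighm (-4.46) and Ciita (-3.93). The ratio of Cd36, at 1.53 the highest of the 10 members in this gate, lay inside that range.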

How the data were processed

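Droplet single-cell data were used, with 1 library of untreated and 1 of MSA-2-treated MC38 tumors. Unnormalized UMI counts for each feature and barcode were deposited, made with Cell Ranger on mm10. The submitters' notes give Cell Ranger 7.0.0 and Seurat 4.3.0, and the file header gives Cell Ranger 7.0.1. Barcodes needed 500 genes and 20% or less of mitochondrial UMIs. Scrublet doublets (scanpy 1.11.5, 0.8% per 1000 barcodes) were then removed. They were 5.02% of untreated and 4.42% of MSA-2 barcodes that had passed this filter. Thinning used seed 1.

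A gate required a summed marker level per 10000 UMIs of the cell: 30 for macrophage, 20 for monocyte with 3 of 4 markers detected, 10 for NK/T and 10 for Gng11-high cells, these with Ptprc under 1. Levels of gates were set after marker distributions were seen, without the members. Cells between the macrophage level and its double numbered 332 and 246, and just under the level, down to 15, 298 and 212. Cells that passed other pairs of sets (284 and 619) were left out, as were cells without a gate (4107 and 3611). The latter passed no set, or passed a set and failed a further limit. Cells of the monocyte set needed C1q under 15 per 10000. Those of the Gng11-high set needed the Ptprc limit and C1q under 10 per 10000. UMIs were summed per gate and library, with exact Poisson, Clopper-Pearson and conditional binomial intervals (Python 3.11.15, numpy 2.4.6, scipy 1.17.1, pandas 2.3.3). Ratios, intervals and thinning were tested on simulated Poisson counts, which lack the uneven spread of UMIs over cells seen here. The check of interval coverage was first made per fold size, failed in 1 group of genes and was then made over pooled features. Figures used matplotlib 3.10.9. Alternatives covered the cell filter, doublets, gate level and markers, TMM scaling (edgeR 4.0.16 in R 4.3.3), weighting, thinning, low-count filter and added CPM.

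Named genes are the members, list genes past 2-fold in the macrophage or monocyte gate (at most 8 a list), the 3 features closest to each member in profile, and the 3 highest and 3 lowest features of the macrophage gate. Named outside this rule are list genes past 2-fold in Gng11-high cells or with TMM in monocytes, list genes within 2-fold in macrophages (Tyrobp, Syk, Plcg2, Tfeb and Tfe3), features closest to members without the untreated neutrophil gate, and marker genes. Members and lists were chosen with earlier results of these data known. A planned sub-gate of macrophages and a planned gene of the lysosomal list are not reported here, and the remaining sub-gates and list counts were computed without them. Gene positions come from GENCODE M21, which holds 99.6% of the feature identifiers, and promoters from RefSeq.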

Additional observations from a re-analysis of the deposited data

Results flagged for a closer look

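Gpnmb differed by cell: its log2 ratio, MSA-2 to untreated, was 1.43 in the macrophage gate and, within 2-fold, -0.20 in Gng11-high cells. Spp1 had 1.16 in the macrophage gate and 2.12 in the monocyte gate, but -0.12 in Gng11-high cells. Fabp5 had 0.23 in macrophages against -1.09 in monocytes and -2.38 in Gng11-high cells. With 1 library per group these differences between gates were not tested.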

How the results depend on the processing

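No paired analysis was possible because each group is 1 library, and leaving out a replicate was not possible either. In the macrophage gate 12 alternatives gave 120 values for the 10 members, of which 82 moved by less than their counting interval, 18 moved up and 20 down. In the monocyte gate, 10 alternatives gave 100 values (86 within their interval, 7 up, 7 down), and in Gng11-high cells 10 gave 100 (77, 9, 14). No called ratio changed sign. Of the counts of members past 2-fold in these 3 gates, edgeR TMM factors changed 1 by over 1.5 times. In the monocyte gate 2 members instead of 1 rose, with Ctsd at 1.03, and Fabp5 was then at -0.83. Of all features there, 13.9% were then higher and 5.48% lower, against 10.3% and 10.6% without TMM. TMM shifted all ratios by 0.27 in that gate, 0.05 in macrophages and -0.06 in Gng11-high cells, and the cause was not tested. Lgals3 in monocytes was -0.23 and with TMM 0.04. Fabp5 in monocytes also lay within 2-fold with the gate level doubled (-0.93), equal weight per cell (-0.97), thinned cells (-0.58) and a gate without Plac8 (-0.96). Cd36 in macrophages was within 2-fold only without resident-marker cells (0.98), where Lpl was -0.05. The ranges over alternatives were 1.10 to 1.52 for Gpnmb and 1.11 to 1.63 for Spp1 in macrophages, 1.98 to 2.40 for Spp1, -2.38 to -1.65 for Apoe and -2.20 to -1.30 for Trem2 in monocytes, and -2.48 to -2.02 for Fabp5 and -2.003 to -1.91 for Apoe in Gng11-high cells. Values near 0 changed sign for Abca1 (-0.05 to 0.09) and Lgals3 (-0.09 to 0.04) in macrophages, for Lpl (-1.37 to 0.003) and Cd36 (-0.37 to 0.80) in monocytes, and for Gpnmb (0.01 with the gate level doubled) and Cd36 (-0.08 thinned) in Gng11-high cells. Without the low-count filter Trem2 also fell in Gng11-high cells, 3 members instead of 2. In the overlap gate 4 instead of 2 then rose and 1 instead of 0 fell. The shares of all features given above hold with the filter only, so nothing particular to the members is read from these counts. Leaving out shared barcodes, leaving out the top cell of a member, dropping the Gng11 level and dropping Plac8 were chosen after seeing the data, as were TMM for the lists and profiles without the untreated neutrophil gate. With TMM the 7 lists in monocytes had 9 genes higher and 5 lower instead of 6 and 9. Without the untreated neutrophil gate Spp1 and Ctsd lost all 3 of their closest features. Fabp5, Lgals3 and Trem2 lost 2 of 3. Lpl in macrophages passed the count filter under 4 alternatives and stayed within 2-fold (0.84 to 0.94), and Gpnmb and Cd36 in monocytes fell below the filter under some. Depth limits Lpl, Cd36 and Gpnmb most, with 46 UMIs or fewer a library in monocytes.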
